A study of Homo sapiens with 6 samples.

Results

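The 233 genes described here carry a ZNF symbol made of ZNF, a number and at most 1 further letter, and had a mean of at least 3 over the 6 libraries of the deposited expression table. They are 233 of 513 such rows and of 23344 rows in all, and they were chosen by level and not by the difference between groups. The libraries came from Huh7, an established human liver cancer line. The 3 control libraries, replicates 1, 2 and 3 of the label shNC, came from cells given a control lentivirus, and the 3 knockdown libraries, replicates 1, 2 and 3 of the label sh2, came from cells given a lentivirus against the V1 isoform of versican, a large proteoglycan of the extracellular matrix. Both groups received virus made in 293T cells with polybrene. The knockdown group carries the label of a single hairpin, so the hairpin and the knockdown cannot be told apart. Whether the replicates were separate cultures is not given in the labels, and a p-value here reflects the spread among the deposited libraries, which could be technical. The series title places the comparison in the question of what versican V1 does in liver cancer cells.

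Most numbered ZNF genes encode proteins with C2H2 zinc fingers, small folds held by a zinc ion that are strung together along the protein and read a DNA sequence a few bases per finger. Many also carry a KRAB box, which binds the corepressor TRIM28 and through it the histone methyltransferase SETDB1 and heterochromatin proteins, and many of these KRAB proteins silence transposable elements. The genes arose by repeated local duplication, and in the human genome many lie side by side in clusters, most of them on chromosome 19.

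As a check of the labels, VCAN, the targeted gene, stood at 4.79, 6.24 and 8.10 in the control libraries and at 1.90, 1.74 and 1.64 in the knockdown libraries (log2 fold change -1.39, SE 0.19, limma adjusted p = 0.0103). Values are those the authors deposited, treated as FPKM, a level per length of transcript. Fold changes are knockdown minus control on the log2(value + 1) scale, which understates changes of low genes. Each was tested with limma over the 13696 genes that reached a value of 1 in at least 3 libraries, and "rose" and "fell" stand for an adjusted p below 0.05. All 12 hepatocyte markers chosen for the check were present in every library, the lowest at 9.97. The mitochondrially encoded share of the total was 15.98% to 19.2% in control and 23.8% to 31.2% in knockdown libraries. The summed level of 15 blood cell markers was 84.2 to 101 in control libraries and 118, 234 and 120 in knockdown replicates 1, 2 and 3. Most of each sum came from CD14 and LYZ, which were present in every library. CD14 stood at 70.15, 54.74 and 45.64 in control and 57.06, 72.51 and 65.23 in knockdown libraries. LYZ stood at 18.30, 24.72 and 24.84 and at 44.53, 68.21 and 37.79. None of the 15 was at 0 in knockdown replicate 2, where PTPRC, the common leukocyte antigen CD45, was at 1.96 and elsewhere at 0.16 or less, while 5 to 7 were at 0 in each other library. The part of these shares in the results below was not tested.

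The numbered ZNF genes were expressed at low levels. Their means over the 6 libraries had a median of 6.03, with quartiles of 4.45 and 10.5, against a median of 16.1 over the 10796 tested genes with a mean of at least 3. Of the 233, 82 had a mean under 5 and 23 a mean of at least 20. All 233 had a value of at least 1 in each of the 6 libraries and so passed the filter on low values. Summed, they made up 0.247% to 0.279% of the values of a library: 2336, 2375 and 2406 in the control and 2444, 2459 and 2434 in the knockdown libraries, so that the 3 knockdown sums lay above the 3 control sums. As shares of the library totals, the groups overlapped, at 0.247%, 0.279% and 0.266% in control and 0.257%, 0.267% and 0.250% in knockdown libraries.

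None of the 5 most abundant members had a match to the KRAB box pattern, and none of them passed the test. ZNF207, a spindle protein also known as BuGZ that guides chromosome alignment, stood at 145.06, 155.08 and 113.33 in control and 126.99, 102.69 and 93.42 in knockdown libraries (log2 fold change -0.35, SE 0.16, adjusted p = 0.179). The groups overlapped, since control replicate 3 lay below knockdown replicate 1. ZNF706, which encodes a small protein in which no C2H2 finger was matched, had a mean of 77.8, and its log2 fold change was 0.04 (SE 0.14, adjusted p = 0.884). ZNF638, an RNA-binding nuclear protein known to help silence unintegrated retroviral DNA, had a mean of 73.4 and a log2 fold change of 0.24 (SE 0.15, adjusted p = 0.310). ZNF146, a protein made almost entirely of zinc fingers, had a mean of 55.6 and a log2 fold change of 0.04 (SE 0.15, adjusted p = 0.885). ZNF664, the fifth, had control values of 48.50, 61.88 and 50.21 and knockdown values of 51.41, 34.05 and 28.30. Its log2 fold change was -0.52 (SE 0.21, adjusted p = 0.142), and knockdown replicate 1 lay among the control libraries. Without that library its adjusted p was 0.00717, in a fit that called 24.5% of all genes tested. Of 14 alternative settings it passed in this 1 alone, and its largest adjusted p was 0.381.

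Of the 233 members, 10 rose and 2 fell in the knockdown libraries, which is 5.15%, against 8.08% of all genes tested (4.15% higher and 3.94% lower in knockdown). Called members were thus a smaller share than called genes in the table. On the log2(value + 1) scale no member moved beyond a log2 fold change of 1 in either direction, while 410 of the 13696 genes did. The added 1 holds down low genes. By group means alone, the ratio of knockdown to control was 2.35 for ZNF69 and 2.10 for ZNF513. In 67 members (28.8%) the 3 control and 3 knockdown values did not overlap, 43 with the knockdown libraries higher and 24 with them lower, against 33.1% of all genes (14.4% higher and 18.7% lower). Scaling the libraries by their totals with the mitochondrially encoded genes left out gave 13 members that rose and 0 that fell, and 680 higher and 223 lower calls over all genes in place of 568 and 539. In bulk RNA, more cells with a transcript and more transcript per cell cannot be told apart.

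**Figure D1:**
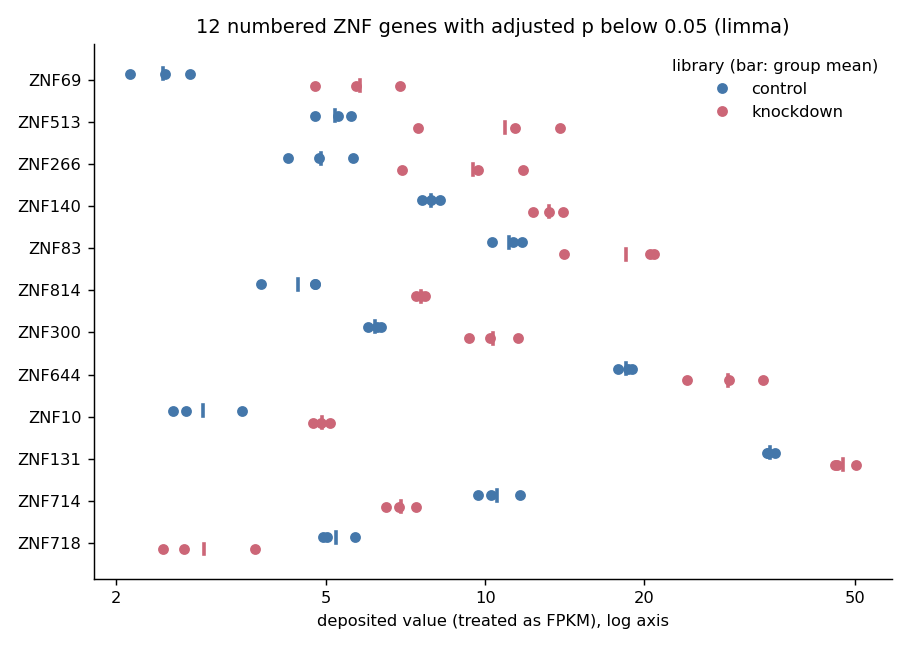
Deposited values (log axis) of the 12 numbered ZNF genes with a limma adjusted p below 0.05, with 1 point per library and a bar at each group mean. The knockdown points lie right of the control points for 10 genes and left of them for ZNF714 and ZNF718, with no overlap in any of the 12.

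The largest rise was that of ZNF69, a KRAB gene on chromosome 19. It stood at 2.48, 2.13 and 2.77 in control and 4.77, 5.70 and 6.90 in knockdown libraries (log2 fold change 0.96, SE 0.17, adjusted p = 0.0192). ZNF513, a finger protein without a KRAB match that is known from an inherited retinal degeneration, stood at 5.26, 4.76 and 5.58 and at 7.46, 11.38 and 13.87 (0.90, SE 0.21, adjusted p = 0.0365). In both genes all knockdown libraries lay above all control libraries, and knockdown replicate 1 was the lowest of its group. ZNF266, in a cluster on chromosome 19, stood at 4.84, 4.23 and 5.63 in control and 6.95, 9.70 and 11.79 in knockdown libraries (0.81, SE 0.20, adjusted p = 0.0426). ZNF83, also on chromosome 19, stood at 11.30, 11.74 and 10.31 and at 14.09, 20.52 and 20.82 (0.67, SE 0.17, adjusted p = 0.0455). Here too, knockdown replicate 1 lay closest to the controls.

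Among the rises with a narrow knockdown group, ZNF140 stood at 7.60, 8.23 and 7.89 in control and 13.22, 12.30 and 14.05 in knockdown libraries (0.67, SE 0.12, adjusted p = 0.0217). ZNF300, on chromosome 5, stood at 6.35, 5.99 and 6.24 and at 11.56, 10.22 and 9.31 (0.66, SE 0.13, adjusted p = 0.0281). Both encode KRAB zinc finger proteins, and in both the lowest knockdown value exceeded the highest control value by more than the range of the control group. ZNF814 stood at 4.77, 3.76 and 4.77 and at 7.40, 7.57 and 7.68 (0.66, SE 0.14, adjusted p = 0.0317). Of its transcript, 27.4% of the 50-base words also occur in transcripts of other genes, so its reads could be split with near-identical copies and its value is uncertain.

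Of the called members, ZNF644, ZNF10 and ZNF131 have better known roles. ZNF644, a partner of the histone H3 lysine 9 methyltransferases G9a and GLP, stood at 18.97, 17.81 and 18.61 in control and 24.11, 28.93 and 33.51 in knockdown libraries (0.61, SE 0.14, adjusted p = 0.0369). ZNF10, or KOX1, whose KRAB box is the one commonly fused to dCas9 for gene silencing, stood at 3.47, 2.72 and 2.57 and at 5.09, 4.90 and 4.72 (0.60, SE 0.15, adjusted p = 0.0483), with 10.3% of its 50-base words shared with other transcripts. ZNF131, a transcription factor with a BTB domain, was the most abundant called member, at 35.36, 34.25 and 34.19 and at 46.28, 45.99 and 50.33 (0.45, SE 0.10, adjusted p = 0.0392). The log2 fold change of ZNF131 was the smallest in size among the 12 called members. In all 3 genes every knockdown library lay above every control library.

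Both members that fell are KRAB genes. ZNF718, on chromosome 4, stood at 5.01, 5.68 and 4.94 in control and 3.67, 2.69 and 2.46 in knockdown libraries (-0.67, SE 0.17, adjusted p = 0.0451). ZNF714, in a large cluster on chromosome 19, stood at 11.66, 10.26 and 9.71 and at 7.39, 6.87 and 6.49 (-0.54, SE 0.13, adjusted p = 0.0445). In both, every knockdown library lay below every control library. Neither passed the test after rescaling without the mitochondrially encoded genes or after trimmed mean scaling, and both kept a negative sign under every alternative run.

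Several further members had groups that did not overlap and large differences without passing the test. ZNF653, which encodes a transcriptional repressor, stood at 6.98, 4.93 and 3.65 in control and 9.77, 8.58 and 8.13 in knockdown libraries (0.70, SE 0.20, adjusted p = 0.0661). On the lower side, ZNF585A stood at 22.80, 16.87 and 14.98 and at 11.87, 11.73 and 9.89 (-0.64, SE 0.17, adjusted p = 0.0524), and 18.0% of its 50-base words are shared with other transcripts. In both genes the control libraries were more spread than the knockdown libraries. ZNF271, which current gene names list as a pseudogene, stood at 8.53, 9.66 and 10.53 and at 7.09, 5.78 and 4.64 (-0.64, SE 0.17, adjusted p = 0.0516). ZNF395 stood at 6.96, 6.83 and 8.35 and at 3.81, 5.32 and 4.88 (-0.57, SE 0.16, adjusted p = 0.0604). Its value is uncertain, since 41.7% of its 50-base words also occur in transcripts of the neighbouring gene FBXO16.

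Over all 233 members the log2 fold changes lay between -0.67 and 0.96, with a median of 0.05 and quartiles of -0.12 and 0.24. The median over all genes tested was -0.03. Of the members 140 (60.1%) had a log2 fold change above 0, against 46.5% of all genes. On the log2(value + 1) scale 16 (6.87%) were beyond 1.5-fold in either direction, against 13.5%. The added 1 lowers this count for low genes, and the median level was 6.03 for the members and 10.5 for all genes. ZNF714, whose group means had a ratio of 0.656, is not among the 16. The members therefore sat slightly to the positive side of the table and had fewer large differences on this scale. The part of their lower level in this was not tested. The distance between the median of the members and that of all genes was 0.08 on the deposited scale, 0.08 after rescaling without the mitochondrially encoded genes, 0.08 after trimmed mean scaling and 0.06 after quantile normalization. It was 0.04 without a filter on low values, where the median over all genes was 0.01, and 0.10 with a minimum mean of 3 for all genes. The medians themselves moved with the scaling, to 0.14 for the members and 0.06 for all genes without the mitochondrially encoded genes.

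**Figure D2:**
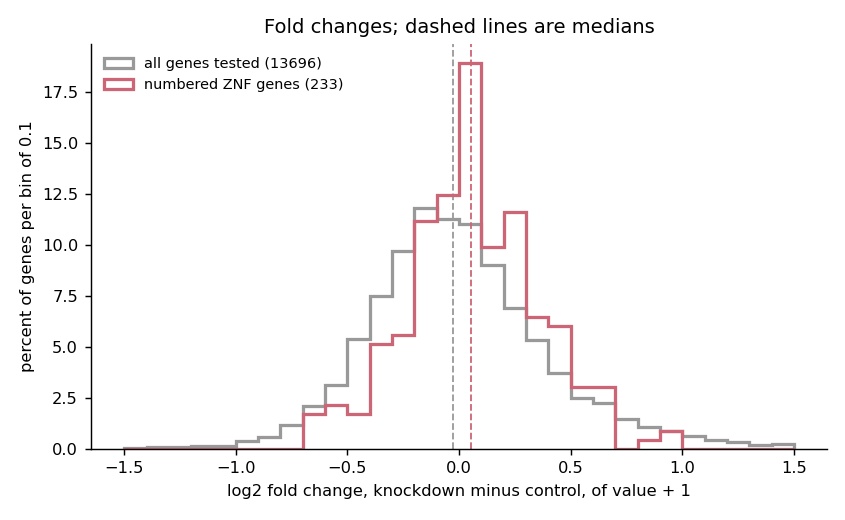
Percent of genes (vertical axis) by log2 fold change of knockdown minus control (bins of 0.1), for the 233 numbered ZNF genes and all 13696 genes tested. The dashed medians are 0.05 for the members and -0.03 for all genes, and the members have no value beyond 1 in either direction.

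The other zinc finger families of the table were smaller. With the same minimum mean of 3, limma called 0 of 19 ZBTB genes, which join a BTB domain to C2H2 fingers, and their median log2 fold change was 0.0004. In 3 of them the unadjusted p was below 0.05. In 15.8% the groups did not overlap, against 28.8% of the numbered ZNF members and 33.1% of all genes. Of 11 ZSCAN and ZKSCAN genes, whose products carry a SCAN domain, limma called 0, with 0 at an unadjusted p below 0.05 and a median of 0.06. Of 6 ZFP genes 1 rose, 3 had an unadjusted p below 0.05, and the median was -0.11. Among the numbered ZNF rows below the mean of 3, 162 passed the filter on low values. Limma called 0 of them, 17 had an unadjusted p below 0.05, and the median was 0.03. Over all genes tested 8.08% were called and 29.3% had an unadjusted p below 0.05. None of these differences between families was tested.

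The level that defines the members splits a continuous range. Just inside it were ZNF225, with a mean of 3.06, ZNF525 with 3.10 and ZNF737 with 3.13. Just outside were ZNF17 with 2.95, ZNF461 with 2.93 and ZNF597 with 2.895.

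The better studied members were grouped by function, and their counts stand beside those of all genes tested, of which 8.08% were called and 29.3% had an unadjusted p below 0.05. The lists hold 3 to 12 members, so 1 call is a large share of a list. Of 12 members of chromatin complexes 1 rose, ZNF644, 2 had an unadjusted p below 0.05, and the median log2 fold change was 0.07. The next by p was ZNF274, which binds the ends of zinc finger genes and brings SETDB1 and TRIM28 there, at 13.33, 13.38 and 17.31 in control and 20.19, 19.57 and 20.75 in knockdown libraries (0.44, SE 0.14, adjusted p = 0.0756). Its groups did not overlap. ZNF518A had a log2 fold change of 0.27 (SE 0.14, adjusted p = 0.238).

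Of 8 activators and DNA-binding regulators without a repressor box 1 rose, ZNF131, and 4 had an unadjusted p below 0.05, with a median of 0.11 over the 8. ZNF281, a GC-rich motif binder studied in epithelial-mesenchymal transition, stood at 31.97, 31.54 and 30.85 in control and 26.12, 19.72 and 18.87 in knockdown libraries (-0.54, SE 0.14, adjusted p = 0.0518). Every knockdown value was below every control value. ZNF143, an activator of many housekeeping and small RNA genes, stood at 20.45, 21.68 and 15.55 and at 14.18, 22.56 and 24.48 (0.06, SE 0.21, adjusted p = 0.882), with wide and overlapping groups.

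Limma called 0 of the 6 members that act in RNA processing, RNA binding or on the spindle, with 1 at an unadjusted p below 0.05 and a median of -0.14. That 1 was ZNF346, a binder of double-stranded RNA (-0.44, SE 0.19, adjusted p = 0.164), and ZNF326, a splicing-linked protein, had -0.30 (SE 0.15, adjusted p = 0.207). It called 0 of the 5 members tied to the ribosome, translation or protein modification, with 0 at an unadjusted p below 0.05 and a median of 0.07. In this group ZNF598, the ubiquitin ligase that senses collided ribosomes, stood at 28.06, 28.53 and 30.64 and at 28.75, 31.75 and 32.96 (0.10, SE 0.11, adjusted p = 0.612). ZNF259, now named ZPR1, had a log2 fold change of -0.31 (SE 0.15, adjusted p = 0.217), and ZNF451, a SUMO ligase, 0.26 (SE 0.15, adjusted p = 0.299).

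Among the 3 members listed as binders or repressors of repeat elements, ZNF10 rose, and 2 had an unadjusted p below 0.05. ZNF91, known to restrain SVA retrotransposons in human cells, stood at 8.20, 7.24 and 8.42 in control and 6.26, 8.91 and 8.90 in knockdown libraries (log2 fold change -0.0012, SE 0.16, adjusted p = 0.997). ZNF141 stood at 4.76, 4.69 and 5.03 and at 3.41, 3.20 and 2.71 (-0.51, SE 0.14, adjusted p = 0.0630), with the knockdown libraries all lower. Limma called 0 of 5 repressors with named target genes, 1 of them, ZNF202, had an unadjusted p below 0.05 (0.47, SE 0.21, adjusted p = 0.167), and the median was 0.20.

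Genes for the proteins that KRAB zinc finger proteins recruit mostly had negative log2 fold changes. Of 25 tested partners in KRAB silencing, 3 (12%) had a log2 fold change above 0, against 46.5% of all genes, and the median was -0.15. These values are on the deposited scale alone. The partners had a median level of 50.1, against 10.5 over all genes, and the part of level or scaling was not tested. Calls among them were 1 of 25 (4%), against 8.08% of all genes, and 7 (28%) had an unadjusted p below 0.05, against 29.3%. The gene that fell was SUV39H1, a histone H3 lysine 9 methyltransferase, at 21.34, 24.88 and 21.74 in control and 15.74, 15.50 and 12.24 in knockdown libraries (-0.62, SE 0.14, adjusted p = 0.0353). TRIM28, the corepressor that the KRAB box binds, stood at 360.30, 319.11 and 345.11 and at 281.18, 301.83 and 298.89 (-0.21, SE 0.10, adjusted p = 0.197). Its groups did not overlap, yet it did not pass the test.

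In protein structure the members ranged widely. The longest open reading frame among the coding transcripts of GENCODE release 29 was translated for the 229 members that have one. A KRAB box pattern was matched in 138 and no such pattern in 91, a count that misses diverged boxes such as those of ZNF202 and ZNF473. The median protein had 9 C2H2 fingers and the highest count was 31, in ZNF91, while 6 proteins had no match. Of the 138 members with a KRAB match 7 rose and 2 fell (6.52%), with a median log2 fold change of 0.06. Of the 91 without 3 rose and 0 fell (3.30%), with a median of 0.02. Both shares lay below the 8.08% called over all genes, where the median was -0.03. The median was -0.02 over the 48 members with 1 to 5 fingers, 0.05 over the 80 with 6 to 10, 0.11 over the 64 with 11 to 15 and 0.09 over the 31 with 16 or more. Across the members the number of fingers and the log2 fold change had a Spearman correlation of 0.16, and the number of fingers and the mean level one of -0.30. These are descriptions across genes measured in the same 6 libraries, and genes are not independent replicates.

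The members were also followed along the chromosomes, in the gene order of the RefSeq annotation GRCh38.p14. Of the 229 that could be placed, 105 lie on chromosome 19, and 112 form 22 clusters of at least 3 members with at most 2 other protein-coding genes between neighbours. Of 102 neighbouring pairs, 60 (58.8%) had log2 fold changes of the same sign, with a Pearson correlation of 0.20 over pairs. Since 60.1% of all members were above 0, many pairs would share a sign in any order, and no expected share was computed. The clusters mostly mixed higher and lower members. In the largest, with 14 members from ZNF101 to ZNF43 on chromosome 19, 8 were above 0 and 6 below, with a median of 0.05, and ZNF714 fell. In the next, with 10 members from ZNF45 to ZNF235, 6 were above 0 and 4 below.

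In 8 of the 22 clusters all members had the same sign, and the 2 described here were chosen after their values were seen. Numbered ZNF genes below the minimum mean were not counted in any cluster. On chromosome 12, all 5 cluster members from ZNF26 to ZNF268 had groups apart with the knockdown libraries higher, against 14.4% of all genes. Beside ZNF140 and ZNF10, which rose, these were ZNF84, at 9.24, 9.41 and 8.26 in control and 11.77, 9.79 and 12.01 in knockdown libraries (0.29, SE 0.14, adjusted p = 0.197), ZNF26 (0.23, SE 0.14, adjusted p = 0.312) and ZNF268 (0.19, SE 0.14, adjusted p = 0.408). ZNF891 lies between ZNF140 and ZNF10 but was below the minimum mean. It stood at 1.19, 1.13 and 1.00 in control and 0.76, 1.04 and 1.05 in knockdown libraries, so its groups overlapped. The median of the 5 members was 0.29, and all 5 stayed above 0 under each of the 14 alternative settings. Under quantile normalization the groups stayed apart in only 3 of 5. ZNF10 and ZNF268 share 10.3% and 4.77% of their 50-base words with the same gene, AC026786.1, so their values may not be fully separate. On chromosome 4, ZNF718, which fell, lies near ZNF141 and ZNF721, and all 3 were below 0, with a median of -0.51. ZNF721 stood at 12.93, 16.89 and 18.53 and at 15.59, 14.28 and 15.18 (-0.08, SE 0.15, adjusted p = 0.755), so that its groups overlapped. Its sign turned when libraries were rescaled without the mitochondrially encoded genes and when control replicate 3 was left out, and ZNF718 and ZNF141 kept theirs.

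**Figure D3:**
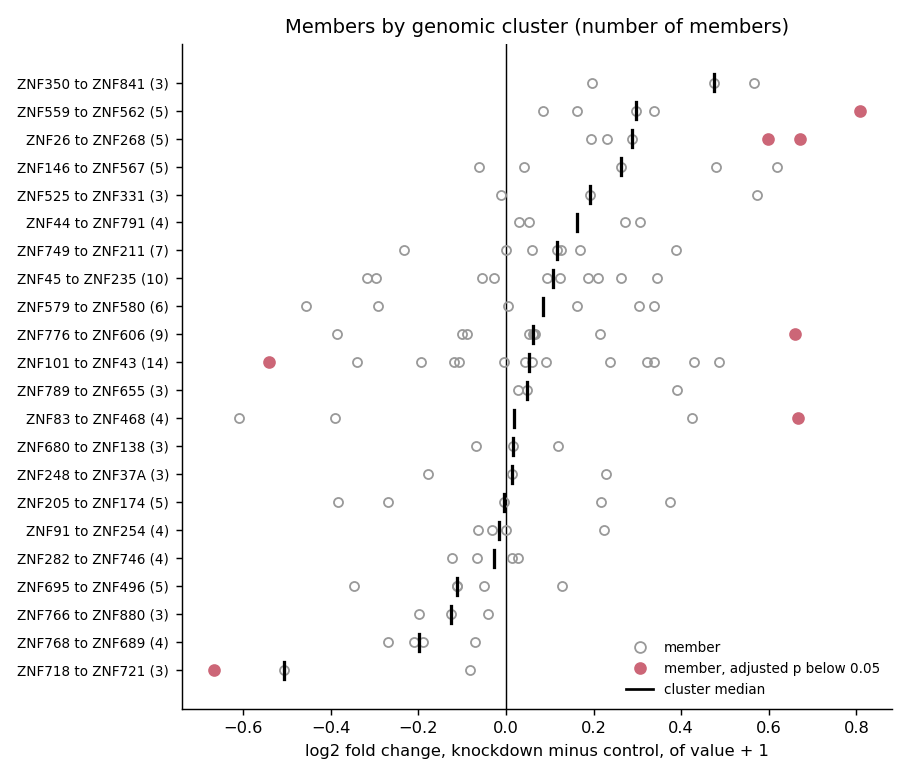
Log2 fold change of knockdown minus control for the 112 members in 22 genomic clusters (rows, named by first and last member, with the number of members), with filled points for an adjusted p below 0.05 and a bar at the cluster median. All 5 points of the cluster from ZNF26 to ZNF268 and all 3 of that from ZNF718 to ZNF721 lie on 1 side of 0, while most other rows have points on both sides.

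Promoter sequences were compared for what the members share apart from their names. RefSeq promoters of 300 bases (250 before and 50 after the start of each gene, GRCh38.p14) were found for 202 of the 233 members and for 15843 coding genes. Both strands were searched for 8 motifs. CCGGAAG, the core bound by ETS factors, was in 96 member promoters (47.5%), against 14.2% of all promoters and 21.9% of the 8148 promoters of genes with a mean of at least 3. ACTACAAT, part of the ZNF143 motif, was in 7 (3.47%), against 0.694% and 1.07%. CCAAT was in 48.5%, against 36.4% and 37.1%, and TGANTCA in 6.93%, against 5.75% and 3.99%. The other shares were near those of either background: 67.3% for GGGCGG, against 58.5% and 72.0%, 10.9% for the NRF1 motif, against 8.58% and 13.2%, and 4.95% for ATGGCGGC, against 4.49% and 7.30%. The NF-kB motif was in 0 of 202, against 0.189% and 0.209%. CCGGAAG was in 53.8% of the 117 promoters of members with a KRAB match and in 38.8% of the 85 without. Of the ZSCAN and ZKSCAN genes it was in 6 of 11 promoters, of the ZBTB genes in 6 of 17 and of the ZFP genes in 1 of 6. The median log2 fold change was 0.06 over the 96 members with CCGGAAG and 0.05 over the 106 without. Of those with the motif 2 rose and 0 fell, and of those without 8 rose and 2 fell, against 8.08% called over all genes. This difference was not tested.

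The 250 bases before the start, from RefSeq, are shown for the members with the largest rise and fall, for the called members with either motif in this stretch, and for 3 abundant members with CCGGAAG in it. Capitals mark CCGGAAG or ACTACAAT on either strand (the reverse strand reads CTTCCGG or ATTGTAGT), and the last base is next to the start.
ZNF69 (chr19:11887532-11887781, plus strand, largest rise, neither motif): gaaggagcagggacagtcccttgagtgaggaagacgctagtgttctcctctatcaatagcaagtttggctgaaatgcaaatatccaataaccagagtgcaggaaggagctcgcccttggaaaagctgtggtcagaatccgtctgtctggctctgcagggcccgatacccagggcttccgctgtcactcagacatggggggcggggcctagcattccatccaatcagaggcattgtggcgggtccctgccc
ZNF718 (chr4:127871-128120, plus strand, largest fall, neither motif): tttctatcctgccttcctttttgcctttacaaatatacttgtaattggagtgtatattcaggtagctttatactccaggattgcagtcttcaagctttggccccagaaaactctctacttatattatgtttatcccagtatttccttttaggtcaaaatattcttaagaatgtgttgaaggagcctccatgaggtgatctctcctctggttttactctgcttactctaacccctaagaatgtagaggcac
ZNF140 (chr12:133080673-133080922, plus strand, rose, ACTACAAT): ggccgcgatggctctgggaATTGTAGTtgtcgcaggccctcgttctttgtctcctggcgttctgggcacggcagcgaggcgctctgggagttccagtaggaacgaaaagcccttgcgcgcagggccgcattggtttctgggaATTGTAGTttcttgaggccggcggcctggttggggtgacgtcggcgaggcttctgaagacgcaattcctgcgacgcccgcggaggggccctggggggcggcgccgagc
ZNF814 (chr19:57889038-57889287, minus strand, rose, CCGGAAG): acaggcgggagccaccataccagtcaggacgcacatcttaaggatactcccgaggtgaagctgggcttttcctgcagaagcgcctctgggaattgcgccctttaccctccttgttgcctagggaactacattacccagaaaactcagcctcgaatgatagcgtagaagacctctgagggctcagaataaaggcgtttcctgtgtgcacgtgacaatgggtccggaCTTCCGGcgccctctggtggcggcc
ZNF638 (chr2:71331532-71331781, plus strand, abundant, CCGGAAG): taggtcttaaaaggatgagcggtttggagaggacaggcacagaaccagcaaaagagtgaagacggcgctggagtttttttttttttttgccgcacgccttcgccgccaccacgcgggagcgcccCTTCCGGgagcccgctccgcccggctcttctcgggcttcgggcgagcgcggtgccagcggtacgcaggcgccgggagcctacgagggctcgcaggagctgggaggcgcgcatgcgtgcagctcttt
ZNF787 (chr19:56121296-56121545, minus strand, abundant, CCGGAAG): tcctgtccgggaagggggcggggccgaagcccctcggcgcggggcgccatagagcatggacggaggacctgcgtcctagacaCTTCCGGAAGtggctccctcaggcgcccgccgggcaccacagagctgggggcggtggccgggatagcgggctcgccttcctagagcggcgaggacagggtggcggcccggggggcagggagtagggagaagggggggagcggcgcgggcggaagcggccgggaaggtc
ZNF622 (chr5:16465801-16466050, minus strand, abundant, CCGGAAG): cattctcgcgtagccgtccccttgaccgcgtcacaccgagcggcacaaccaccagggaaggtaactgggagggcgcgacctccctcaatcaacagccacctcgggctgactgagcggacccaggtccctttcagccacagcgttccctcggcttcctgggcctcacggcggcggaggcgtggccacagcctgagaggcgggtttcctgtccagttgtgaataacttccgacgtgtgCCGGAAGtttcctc
The stretch before ZNF140 holds ACTACAAT at 2 places, and those before ZNF69 and ZNF718 hold neither motif. CG dinucleotides numbered 25 before ZNF140, 7 before ZNF69 and 0 before ZNF718. A match is a run of letters and not a bound site. The abundant genes among these, ZNF638, ZNF787 (log2 fold change -0.16, SE 0.13, adjusted p = 0.441) and ZNF622, a factor in maturation of the large ribosomal subunit (0.07, SE 0.13, adjusted p = 0.753), did not pass the test.

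The spread within groups was narrow for most members. The SD of log2(value + 1) within the control group had a median of 0.14 over members, against 0.15 over genes between the same lowest and highest levels. Within the knockdown group it was 0.17, against 0.18. Those genes had a median level of 14.2, against 6.03 for the members, so levels were not matched. Of the members, 126 (54.1%) had the larger SD in the knockdown group, against 57.7% of all genes. The widest control groups were those of ZNF28, at 7.86, 6.47 and 3.43, and ZNF561, at 5.54, 6.02 and 10.90, in which control replicate 3 stood apart in opposite directions. The widest knockdown groups were those of ZNF778, at 1.04, 8.45 and 3.82, and ZNF28, at 3.85, 5.22 and 1.73. ZNF778 had control values of 2.82, 2.81 and 1.67, so its knockdown libraries lay on both sides of all control libraries.

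Knockdown replicate 1 stood apart from the other 2 knockdown libraries. It was the library farthest from the median of its group for 132 of the 233 members, against 38 and 63 for replicates 2 and 3. This count was not made over all genes, so it is not known to be particular to the members. In the control group the counts were even, at 79, 69 and 85. Measured from the control mean, the members had a median log2 deviation of -0.05, 0.0035 and 0.04 in the control libraries and of 0.03, 0.09 and 0.07 in knockdown replicates 1, 2 and 3, so that knockdown replicate 1 lay within the range of the controls. The order depended on the scaling. Without the mitochondrially encoded genes the knockdown values were 0.06, 0.21 and 0.19, and after quantile normalization they were 0.06, 0.000803 and 0.02.

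**Figure D4:**
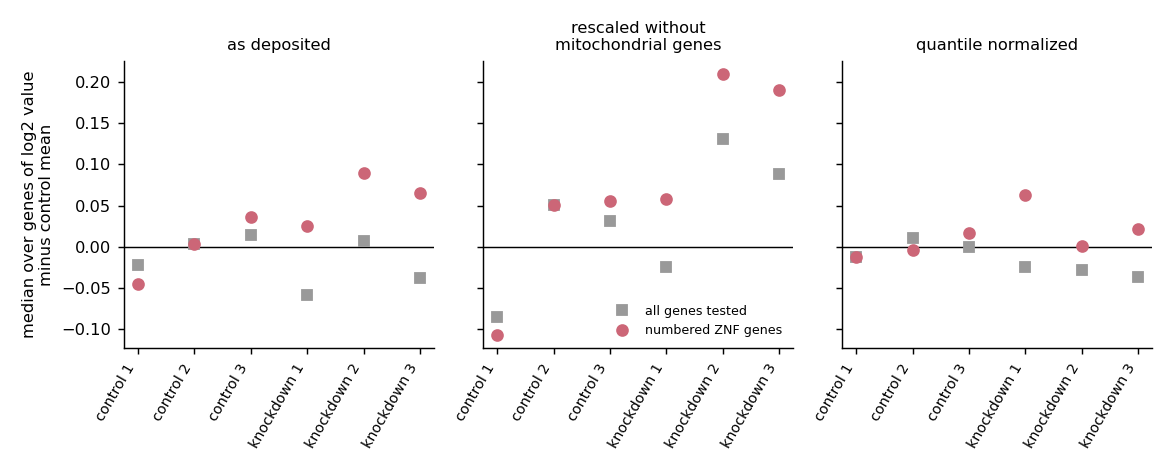
Median over genes of log2(value + 1) minus the mean of the control libraries, for each library under 3 scalings, for the 233 numbered ZNF genes (circles) and all genes tested (squares). The members lie above all genes in each knockdown library under each scaling, by different amounts, and the highest library is knockdown replicate 2 as deposited and knockdown replicate 1 after quantile normalization.

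The number of called members changed with the library left out. Without knockdown replicate 1, 25 members rose and 10 fell (15.02%, against 24.5% of all genes tested in that fit), and the 12 members called with all libraries were among them. With control replicate 1, control replicate 2, knockdown replicate 2 or knockdown replicate 3 left out, limma called 0 members, and the number at an unadjusted p below 0.05 was 33, 30, 34 and 34, against 47 with all libraries. Without control replicate 3 it called 1, and 44 had an unadjusted p below 0.05. The share over all genes fell likewise, to between 0.414% and 1.81%. Without knockdown replicate 2, which held blood cell transcripts, the log2 fold changes of the called members stayed near their values with all libraries, at 0.97 for ZNF69 (SE 0.21, adjusted p = 0.0706), 0.72 for ZNF140 (SE 0.15, adjusted p = 0.0694) and -0.63 for ZNF718 (SE 0.20, adjusted p = 0.142).

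**Figure D5:**
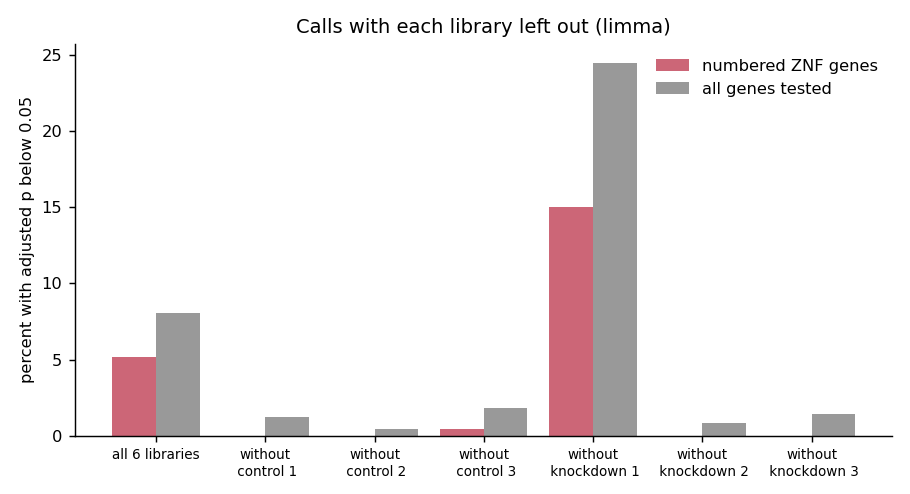
Percent of genes with a limma adjusted p below 0.05 (vertical axis, from 0) with all 6 libraries and with each library left out, for the 233 numbered ZNF genes and all genes tested. The members stand at 5.15% with all libraries, at 15.02% without knockdown replicate 1 and at 0 in 4 of the other 5 fits.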

How the data were processed

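Per the labels' protocols, Trizol was used to isolate total RNA and a TruSeq RNA kit to build the libraries. The authors deposited 1 table of 23344 human Ensembl gene IDs with symbols and 6 columns, matched to the libraries by title. The deposited file states no unit. Its values were read as FPKM computed by the authors, but TPM over part of the genes would look alike. Column sums were 851418 to 975501, and read depth is unknown, so no counting intervals were computed and the precision is known only from the spread between libraries. The submitters' processing notes name RSEM 1.1.17, Bowtie2 2.2.6, Trimmomatic 0.36 and bcl2fastq 2.19.0, as well as DESeq2 1.16.1 and edgeR 3.18.1, without the step of each, and a mouse genome build, although the IDs are human. The authors' build is therefore uncertain, and all coordinates and sequences come from RefSeq.

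A count test was intended, but the values are not counts, so log2 values were tested. A pseudocount of 1 was added, the 13696 genes that reached 1 in at least 3 libraries were kept, and groups were compared with limma 3.58.1 in R 4.3.3, with trend and robust moderation, two-sided, with p-values adjusted by Benjamini-Hochberg over these genes. Tables were summarised in Python 3.11.15 with pandas 2.3.3. The members, gene lists and tests were chosen with earlier results of these data known, and the motifs, clusters and shared words were examined after the fit. Genes were named by rule: VCAN, called members, the 5 highest means, the 4 largest differences in each direction among members whose groups do not overlap, the 2 widest SDs per group, the 3 members on each side of the minimum mean, and the 3 smallest p in each list. The others were chosen after their values were seen. They are the remaining members of the clusters on chromosomes 4 and 12, ZNF891, ZNF143, ZNF787, ZNF622, ZNF473, PTPRC, CD14, LYZ and TRIM28. The NocA/Nlz list had 0 members and was not described. Some genes that the rule selects are given by list counts alone. Fingers and KRAB boxes were matched by pattern in translated GENCODE release 29 transcripts, and shared words are stretches of 50 bases that also occur in a transcript of another gene. By that measure 18 of 233 members share at least 20% of their words with other genes and 6 at least 50%. Whether same-numbered libraries are paired was checked by their deviations from the group means, which correlated at 0.05, 0.10 and 0.14.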

Additional observations from a re-analysis of the deposited data

How the results depend on the processing

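Of 14 alternative settings, the 12 called members passed in 3 (ZNF714) to 9 (ZNF69) and none changed sign. The 12 calls (10 rose, 2 fell) became 0 without a filter on low values, where 221 of all genes were called in place of 1107, 7 (6 and 1) without trend and robust moderation, and 4 (4 and 0) with a minimum mean of 10 for members, where 19 members were apart, 12 of them higher. With a filter at a mean of 3 for all genes 5 members fell, with quantile normalization 1, and with trimmed mean scaling or rescaling without the mitochondrially encoded genes 0. The last also moved the median log2 fold change of the members from 0.05 to 0.14. Among settings chosen after seeing the data, it moved the median deviation of knockdown replicates 2 and 3 to 0.21 and 0.19, and quantile normalization moved them to 0.000803 and 0.0212. Leaving out 1 library gave 0 to 35 called members (0 to 25 rose, 0 to 10 fell) and medians of 0.03 to 0.07. Those fits also held fewer libraries, and the cause was not tested.

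With the replicate block, 6 members were called (5 rose, 1 fell) and 861 of all genes. The rises were those of ZNF69, ZNF513, ZNF266, ZNF140 and ZNF300, all among the 12. The fall was that of ZNF585A (adjusted p = 0.0499, limma), while ZNF718 had 0.0665 and ZNF714 0.0584. Control replicate 1 correlated better with knockdown replicate 3 (0.08) than with its own number (0.05). Control replicates 2 and 3 correlated best with their own numbers (0.10 and 0.14). The labels tie the numbers to no culture or day, so whether same-numbered libraries are paired is not known. Depth is unknown, so no limit by depth can be given for low members.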
